A study of Drosophila melanogaster with 4 samples.

Results

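The Iroquois complex of Drosophila melanogaster comprises the homeobox genes araucan (ara), caupolican (caup) and mirror (mirr). They were examined here through the intervals of dRING enrichment in their window on chromosome arm 3L, from 12550000 to 12710000 in FlyBase release 5. The intervals were chosen by position: every deposited interval that overlaps this window is a member. The window itself was picked from the measured cover and scores of these same lists. Its high cover is therefore how it came to be chosen, and it is given here as a description, without a test. The series list held 18 members of 7386 regions on the 6 main chromosome arms, replicate 1 held 18 of 3458 clusters and replicate 2 held 20 of 3048. A region is an interval of the list made for the whole series, and a cluster is an interval of a single ChIP library.

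The study used ChIP-seq, the sequencing of DNA that is recovered with an antibody against a chromatin protein, to map dRING in whole wild-type Oregon-R embryos (official name Oregon-R-modENCODE) aged 14 to 16 h. It made 2 ChIP libraries with the antibody Q3200 and 2 input libraries, 1 for each ChIP library, and every library came from the same strain and stage. The labels give 1.8% formaldehyde and an antibody incubation of 15 h for all of them. No condition was therefore compared, and each comparison below is between the 2 ChIP libraries or between places in the genome. The labels do not say if each replicate was a collection of its own, and the spread between them may be technical. A whole embryo mixes many tissues, so an interval bound in all cells and one bound in some cells cannot be told apart.

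The Iroquois genes encode homeodomain transcription factors of the TALE class and lie side by side as a gene complex. As background, ara and caup are known as prepattern genes: in the wing disc they activate the proneural genes achaete and scute and take part in placing wing veins. The gene mirr is known for marking the dorsal part of the eye, where the complex restricts fringe to the other side, and for patterning the follicle cells of the ovary. Polycomb repressive complexes keep developmental regulators silent where they are not needed, and the Iroquois complex is among their known targets. dRING, encoded by Sex combs extra, is the RING-finger subunit of Polycomb repressive complex 1 that carries the ubiquitin ligase activity towards histone H2A.

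In the gene table at hand, which is of release 6 and was used for names and neighbours only, all 3 genes were found on 3L in the order ara, caup, mirr. The table lists no gene between ara and caup, and 4 long non-coding RNA genes (lncRNA:CR32111, lncRNA:CR43431, lncRNA:CR44553 and lncRNA:CR44552) stand between caup and mirr. Beyond ara come lncRNA:CR43612 and sowah, and beyond mirr come SmD1, which encodes a core protein of the splicing machinery, and Ptp69D, a receptor tyrosine phosphatase of axon guidance. The deposited intervals are in release 5 and positions were not converted. Start sites, exons and introns of ara, caup and mirr were therefore not placed under single intervals, and the values below belong to the window that holds the complex.

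Clusters of replicate 1 covered 78.3% of the window (125.3 kb) and those of replicate 2 covered 37.3% (59.7 kb), a mean of 57.8 ± 29.0% (SD, n = 2). The series list covered 86.0%. Over all arms the corresponding shares were 7.57%, 5.94% and 13.6%. The libraries thus stood far apart in how much of the window they marked, 2.10 times as much in replicate 1. The narrower cover lay almost wholly within the wider one. Of the bases covered in replicate 2, 97.9% were also covered in replicate 1, whereas 46.7% of the bases of replicate 1 were covered in replicate 2. Both libraries marked 58.5 kb, replicate 1 alone 66.8 kb and replicate 2 alone 1.24 kb (1235 bp). The files give no read counts, so the depth behind either figure is unknown, and its part in the difference was not tested.

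**Figure D1:**
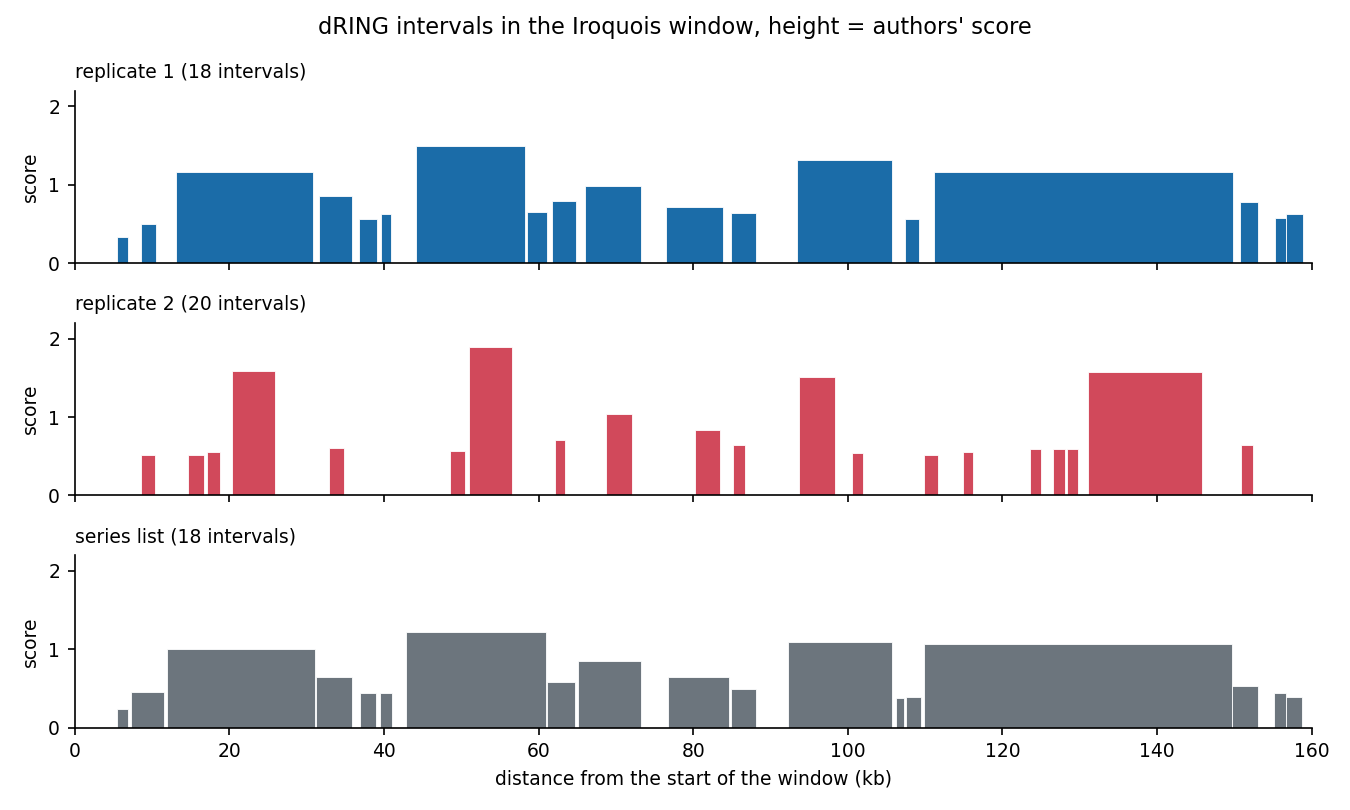
Intervals of the window in replicate 1, replicate 2 and the series list, by distance from the window start in kb (horizontal) and the authors' score, which has no stated unit (vertical); each bar is 1 interval. Wide bars fill much of the replicate 1 and series tracks, and the replicate 2 track has 4 bars with a score of at least 1.51 over the wide bars of replicate 1.

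Wide stretches with high scores, 4 in number, made up most of the cover of replicate 1. They are defined by the lengths in replicate 1, as replicate 2 had only 1 cluster of 10 kb or longer. In replicate 1 they were the 4 clusters of 10 kb or longer, which together held 82.9 kb, or 66.1% of its cover. Each contained 1 of the 4 highest-scoring replicate 2 clusters, and these together held 30.5 kb, or 51.1% of the cover of replicate 2. The score is the authors' own, with no stated scale, and is compared here as a difference. It ran from 1.16 to 1.50 over the wide clusters of replicate 1 and from 1.51 to 1.89 over the matching clusters of replicate 2. The other 14 clusters of replicate 1, all shorter than 10 kb, lay between 0.33 and 0.98 (median 0.63). The other 16 of replicate 2, which are lower by the choice of its 4 highest, lay between 0.52 and 1.04 (median 0.59). In all, 13 of the 20 replicate 2 clusters lay over the wide stretches.

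The highest score of each library fell in the same stretch. In replicate 1 it was the cluster from 12594117 to 12608229 (14.1 kb), with a score of 1.50. In replicate 2 it was the cluster from 12600974 to 12606539 (5.57 kb), with 1.89. The mean was 1.69 ± 0.28 (SD, n = 2), and the series region over both, from 12592869 to 12610971, had a score of 1.22. The replicate 2 cluster lay wholly inside that of replicate 1 and its midpoint was 2.58 kb above the midpoint of the wider cluster. A smaller replicate 2 cluster beside it, from 12598537 to 12600532, scored 0.57.

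The longest stretch lay towards the upper end of the window. Replicate 1 had a single cluster there from 12661136 to 12699765 (38.6 kb), the 3rd longest of its 3458 clusters, with a score of 1.16. Replicate 2 divided the same stretch into 6 clusters. The largest of them, from 12681039 to 12695832 (14.8 kb), was the 5th longest of 3048 and scored 1.57, and the other 5 scored 0.52 to 0.60. Only the large cluster thus carried a score like those of the other wide stretches. The series region from 12659798 to 12699696 (39.9 kb) had a score of 1.06 and was covered to 96.6% in replicate 1 and 55.7% in replicate 2.

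The series region at the lower end, from 12561954 to 12581127 (19.2 kb), had a score of 1.00. Under it, replicate 1 had a cluster from 12563091 to 12580877 (17.8 kb) with a score of 1.16. Over it replicate 2 had 3 clusters, of which the one from 12570363 to 12575910 (5.55 kb) scored 1.59, and those from 12564684 to 12566669 and from 12567145 to 12568790 scored 0.52 and 0.55. The mean of the highest scores was 1.38 ± 0.31 (SD, n = 2). Replicate 2 was higher by 0.43 here, little more than the 0.41 and 0.39 of the longest and the highest-scoring stretch. In the remaining wide stretch it was higher by 0.19. The remaining stretch, the series region from 12642241 to 12655681 (13.4 kb, score 1.10), ran from 12643382 to 12655702 in replicate 1 (12.3 kb, score 1.32). Its main replicate 2 cluster, from 12643746 to 12648350 (4.61 kb), scored 1.51 and sat near the lower end of the wider cluster, with its midpoint 21.6% of the way along it. In the other wide stretches that midpoint stood at 56.5%, 68.3% and 70.7%. Counted from the lower end, the midpoints of the 4 strong replicate 2 clusters were 30.6, 42.3 and 42.4 kb apart.

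Between and beside the wide stretches, clusters of the 2 libraries with lower scores than those of the matched wide clusters overlapped. The strongest ran from 12615985 to 12623228 in replicate 1 (score 0.98) and from 12618664 to 12622121 in replicate 2 (1.04), and ranked 5th by score in both. A cluster from 12626459 to 12633915 in replicate 1 (0.72) held one from 12630265 to 12633518 in replicate 2 (0.83). The neighbouring pair, from 12634872 to 12638062 and from 12635188 to 12636669, had nearly equal scores of 0.64 and 0.65. Replicate 1 scored higher in 3 pairs. These were 12581617 to 12585827 (0.85, against 0.61 at 12582933 to 12584807), 12611782 to 12614832 (0.80, against 0.71 at 12612153 to 12613469) and 12700756 to 12703085 (0.78, against 0.65 at 12700822 to 12702401). The series regions over these pairs were 12611098 to 12614733 (series score 0.58), 12615091 to 12623294 (0.86), 12626792 to 12634689 (0.65), 12634831 to 12638074 (0.50), 12581275 to 12585823 (0.65) and 12699733 to 12703056 (0.54). The lowest pair, under the region from 12557255 to 12561577 (series score 0.45), stood near the lower edge, from 12558579 to 12560570 in replicate 1 (0.50) and from 12558605 to 12560352 in replicate 2 (0.52).

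**Figure D2:**
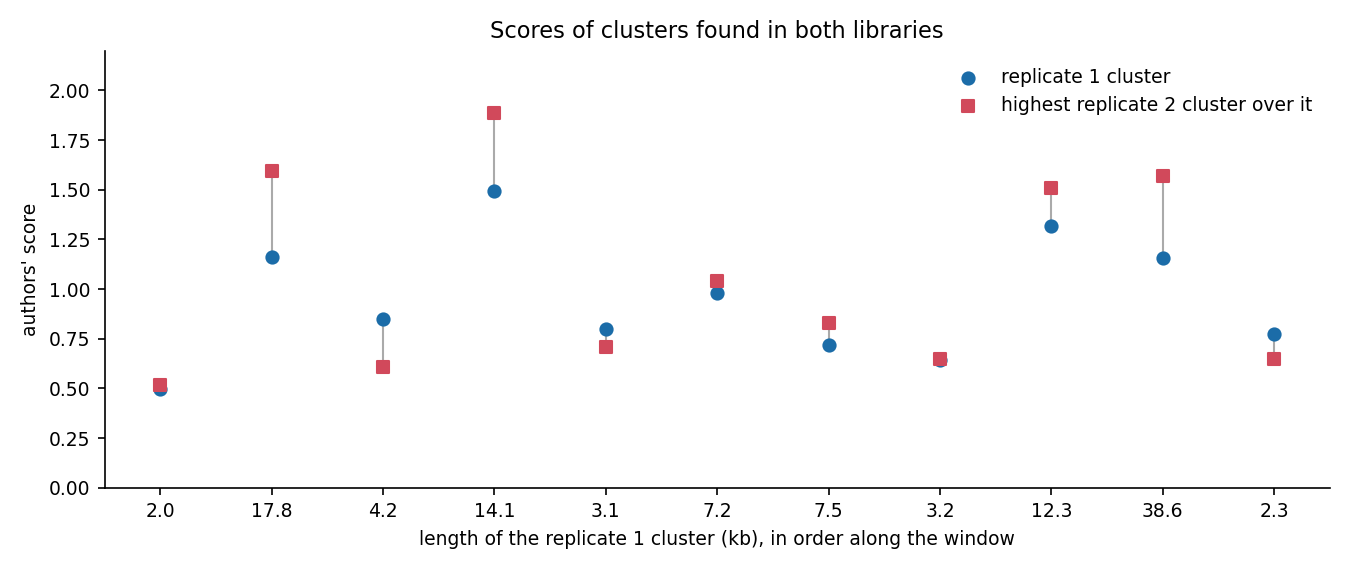
Authors' score (no stated unit) of the 11 replicate 1 clusters that overlap replicate 2 (circles) and of the highest replicate 2 cluster over each (squares), in order along the window and labelled by the replicate 1 length in kb. The squares stand above the circles by 0.19 to 0.43 at the 4 longest clusters and differ from them by -0.24 to 0.11 elsewhere. At the 4 longest the square is the highest of several replicate 2 clusters, and elsewhere it is the only one.

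Across these 11 pairs the scores rose together (Spearman's rho 0.85 and Pearson's r 0.94, n = 11 places from the same 2 libraries, given as a description). At the 4 wide stretches the highest of several replicate 2 clusters was taken, and this choice enters both values. Neither correlation was computed without these stretches or over all arms, so no trait of the window is read from them. Replicate 2 was higher in 8 of 11, where the same pairing over all arms gave 76.9% of 2188 pairs, so the share here was close to the background. The difference was 0.06 in the median, from -0.24 to 0.43, and 0.15 in the median over all arms. At the 4 wide stretches it was 0.19 to 0.43. Each of these held several replicate 2 clusters, of which the highest was taken, and the rest scored 0.52 to 0.60. The other 7 pairs had 1 replicate 2 cluster each, so the larger differences at the wide stretches depend on this choice. No source used here puts the scores of the 2 lists on a common scale, so such differences describe the lists and not the amount of dRING bound.

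Of the 18 replicate 1 clusters, 11 shared 1 bp or more with replicate 2, or 61.1%, against 63.3% of all replicate 1 clusters. All 20 replicate 2 clusters overlapped replicate 1, against 76.8% of all replicate 2 clusters. Of the 20, 19 lay entirely inside replicate 1 clusters, and the exception, from 12659901 to 12661698, was covered to 31.3%. Since replicate 1 covered 78.3% of the window, a cluster placed anywhere in it would often meet one, and nothing is read from the count of 20. The 20 are also not separate sites, as 13 of them lay over the 4 wide clusters of replicate 1. Clusters of both replicates overlapped 11 of the 18 series regions (61.1%), against 28.4% of all regions. The count of 11 fell to 1 when clusters of each replicate had to cover 50% of a region, and to 7 with clusters above the median score of their list. It follows in part from the cover by which the window was picked, and nothing is read from it.

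The 7 replicate 1 clusters with no replicate 2 partner were all short and none had a score above 0.65. They were 1.36 to 2.47 kb long. The one with the highest score, from 12608563 to 12611027 (0.65), adjoined the strongest stretch. A neighbouring pair, from 12586790 to 12589039 and from 12589572 to 12590946, scored 0.56 and 0.63 and fell in the longest stretch of the window without a replicate 2 cluster, 13.7 kb from 12584808 to 12598536. The cluster from 12657407 to 12659267 scored 0.56. The other 3 stood beyond the outermost paired clusters, from 12555444 to 12556897 with the lowest score of any cluster in the window (0.33), and from 12705288 to 12706645 and 12706676 to 12708866 with 0.57 and 0.62. Paired clusters reached as low as 0.50, so the scores of paired and unpaired clusters overlapped.

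Cover by replicate 2 was alike in the 11 regions seen in both libraries, at 36.2 to 55.7% of a region, although these regions ran from 3.24 to 39.9 kb. Cover by replicate 1 was 81.2 to 98.4% in 9 of them. It was 46.1% in the region from 12557255 to 12561577, where the libraries differed least (40.4% in replicate 2), and 70.2% in that from 12699733 to 12703056. Replicate 1 covered more in 11 of 11, against 54.9% of all 2100 regions seen in both. In bins of 10 kb along the window, replicate 1 also covered more in 16 of 16. The bin from 130 to 140 kb came closest, with 100% and 89.6%, and the bin from 100 to 110 kb stood furthest apart, with 75.6% and 15.0%. Replicate 1 covered over 50% of 15 bins and replicate 2 of 4.

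**Figure D3:**
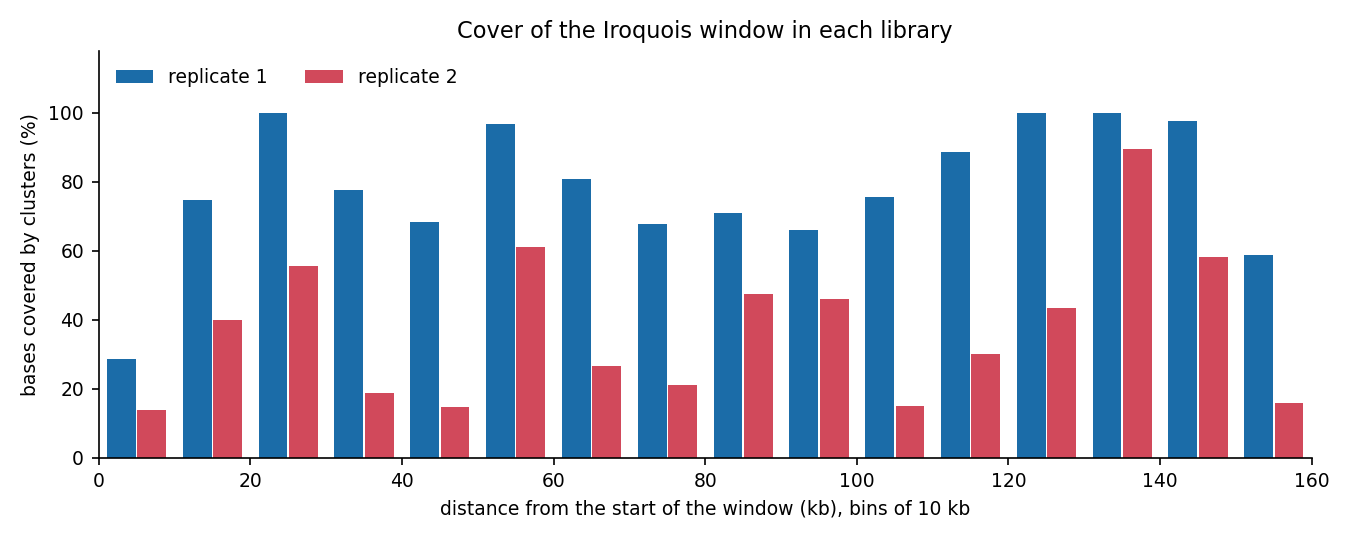
Share of bases covered by clusters in replicate 1 and replicate 2 (per cent, from 0) in the 16 bins of 10 kb along the window, by distance from its start in kb. Replicate 1 is the taller bar in all 16 bins, and the bars come closest, at 100% and 89.6%, between 130 and 140 kb.

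Most stretches of the window that were bare in both libraries were short. Between the outermost clusters of the window there were 17, of 26.9 kb in all and with a median of 990 bp. At its lower edge, 5.44 kb from 12550000 to 12555443 held no cluster of either library and no series region. Of the 17 between the outermost clusters, 3 were 3 kb or longer. The longest of these was 5.32 kb, from 12638063 to 12643381, just below one of the wide stretches. The others were 12590947 to 12594116 (3.17 kb) and 12623229 to 12626458 (3.23 kb). Series regions covered 21.7%, 42.0% and 2.04% of these, so between its outermost regions the series list kept 2 stretches of 3 kb or more free, of 3.50 and 4.17 kb. Counted in the same way, without the edges, replicate 1 had 3 such stretches and replicate 2 had 11.

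Lengths and scores in the window were set beside those of the whole lists. Intervals of 10 kb or longer made up 4 of 18 regions, against 1.44% of the series list, and 4 of 18 clusters in replicate 1, against 2.11%. In replicate 2 there was 1 in 20, against 0.295%. Length was part of how the window came to be chosen, so nothing is read from these counts. The median length was 2758 bp in replicate 1 (2008 bp over the arms) and 1773 bp in replicate 2 (2040.5 bp over the arms). The median score was 0.68 in replicate 1 (0.60 over the arms) and 0.60 in replicate 2 (0.71 over the arms). The highest score ranked 281 of 3458 in replicate 1 and 314 of 3048 in replicate 2. Mean scores per library were 0.80 and 0.83, or 0.81 ± 0.02 (SD, n = 2). As the 2 lists have no known common scale, the small SD is not read as agreement. Clusters above the median score of their own list were 13 of 18 in replicate 1 and 7 of 20 in replicate 2. Longer intervals tended to have higher scores, with rho = 0.87 over 18 clusters in replicate 1 and a weaker 0.54 over 20 in replicate 2. The same correlation over the whole lists was not computed, so it is not read as a trait of the window. The clusters correlated are places within 1 library, and the values are given as a description.

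**Figure D4:**
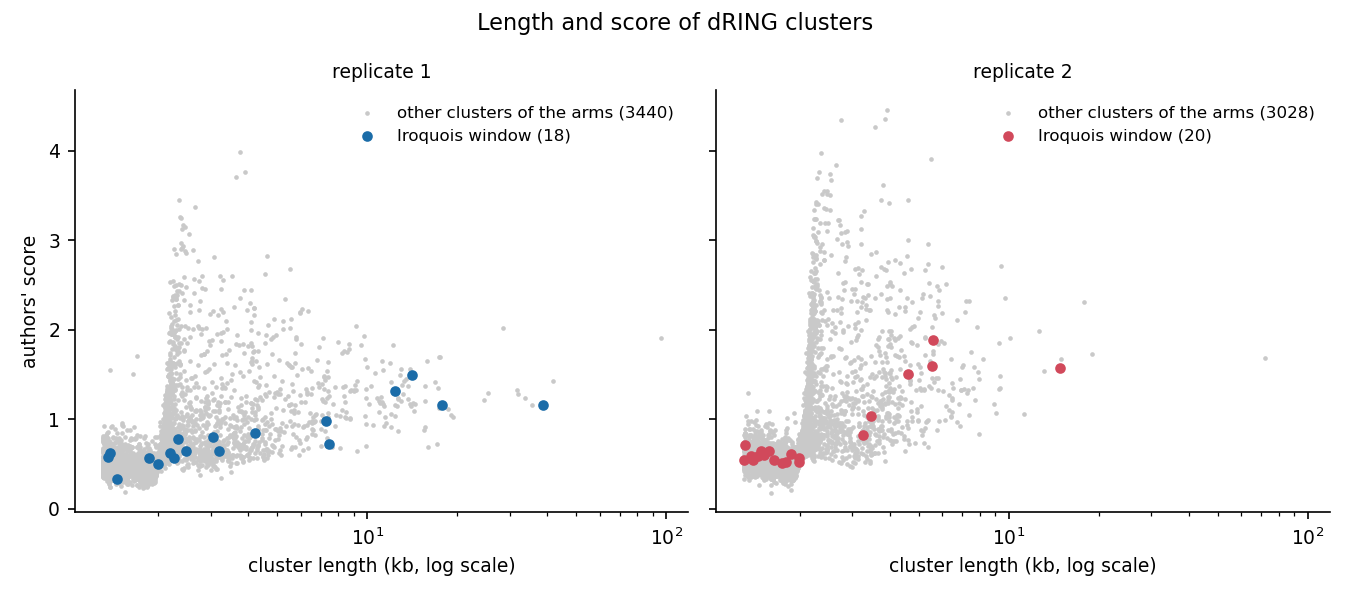
Length in kb (log scale) and authors' score (no stated unit) of every cluster on the 6 arms in each library, with the clusters of the window in colour. The window holds long clusters, up to 38.6 kb in replicate 1 and 14.8 kb in replicate 2, and its scores stay at or below 1.50 and 1.89.

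Scores in the series list were lower than in either library at most of these places. The series score lay below the highest cluster score of both replicates in 10 of the 11 regions seen in both, against 48.1% of all 2100 such regions. The exception was the region from 12581275 to 12585823, where the series score was 0.65 and the cluster scores were 0.85 and 0.61. In the region from 12699733 to 12703056 the replicate 1 score counted is that of the 38.6 kb cluster, which reaches a few bases into it. No source used here says how the series score was formed from the libraries, and no test of this share was made.

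The 6 regions overlapped by replicate 1 alone had series scores of 0.24 to 0.45 and lengths of 1.49 to 2.14 kb, below the 11 seen in both, which began at 0.45 (0.452 against 0.450) and 3.24 kb. A single region, from 12656259 to 12657319 (0.38), met no cluster, and at 1.06 kb it was shorter than any replicate cluster, the shortest of which was 1301 bp. The 4 regions of 10 kb or longer had series scores of 1.00 to 1.22, around the median of 1.07 over all 106 such regions, and replicate 2 covers of 41.8 to 55.7%, around or below their median of 55.4%.

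Cover was lower on both sides of the window than in it, which follows in part from how the window was picked. In the 20 kb below it, replicate 1 covered 10.1% and replicate 2 had no cluster, and in the 20 kb above it they covered 20.5% and 7.80%. The series list covered 17.3% below and 37.1% above. Over all arms the shares were 7.57% in replicate 1, 5.94% in replicate 2 and 13.6% in the series list. Only replicate 2 below the window fell under its share. No flanking cluster scored above 0.61. The nearest replicate 2 clusters outside were 41.3 kb below (0.52) and 12.1 kb above (0.59), while those just inside had 0.52 and 0.65. In replicate 1 the nearest outside were 13.7 kb below (0.61) and 0.32 kb above (0.56), and those just inside had 0.33 and 0.62. The upper edge thus cuts a short run of low replicate 1 clusters. In the series list the nearest regions outside scored 0.35 below and 0.30 above, and those just inside 0.24 and 0.40.

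The window was set beside the rest of the arms by laying 749 windows of like length end to end. The median cover of these was 4.91% in replicate 1 and 4.59% in replicate 2. Cover was higher in 1 other window in replicate 1, in 2 in replicate 2 and in 1 in the series list. The window was picked by its cover and scores in these same lists, whereas windows laid end to end can split a domain. Nothing is therefore read from these ranks or from the rank of the domain that follows. When regions seen in both replicates and less than 10 kb apart were joined, the window held the domain from 12557255 to 12703056 (146 kb, 11 regions, 126 kb covered), the 2nd of 1427 by covered bases. It was the 3rd with a gap of 20 kb, and the 3rd when replicate 2 was left out.

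Its neighbours in that order, both on 3R, had higher top scores and shorter longest clusters in replicate 2 when the gap was 10 kb. The domain from 12521907 to 12810523 reached 2.32 in replicate 2 with a longest cluster of 8.22 kb. In the domain from 2706479 to 2840078 the values were 3.01 and 5.01 kb, and in the Iroquois domain 1.89 and 14.8 kb. In replicate 1 the highest scores were 1.34, 1.70 and 1.50 in the same order. The cover of the span was larger in replicate 1 than in replicate 2 in each, by 1.89, 2.29 and 2.01 times. Which domains stand next in order depends on the joining gap. With a gap of 5 or 20 kb a domain on 2R that ends at 8931418 stood beside the Iroquois domain. Its top replicate 2 score was lower, at 1.73 or 1.77, its longest replicate 2 cluster was longer, at 72.2 kb, and its cover was 1.05 or 1.14 times as large in replicate 1. With 2 libraries no test of these differences was made, and none is called particular to the Iroquois complex.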

How the data were processed

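The authors deposited 1 list of enriched intervals for each ChIP library and 1 for the series, each interval with a score. Per the submitters' processing notes, Bowtie 0.12.7 was used, and per the file headers the coordinates are those of FlyBase release 5. No source used here names the region caller or its threshold, the scale of the score or the way the series list was made. Each replicate list had its own input library, per the labels, whose values were not analysed here. The lists hold no read counts, so depth is unknown.

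Intervals were handled in Python 3.11.15 (numpy 2.4.6; scipy 1.17.1), figures were made in matplotlib 3.10.9, and positions are 1-based. Shares over the arms cover X, 4 and both arms of chromosomes 2 and 3. Overlap was at least 1 bp, and each replicate 1 cluster was paired with the highest-scoring replicate 2 cluster over it. Interval arithmetic was tested on simulated data. The genes, the window and all choices of what to describe were made with earlier results of these data known. Every interval of the window was accounted for, and those given in full are the series regions seen in both libraries, the highest and longest clusters, bare stretches of 3 kb or more and the nearest intervals outside. Planned motif searches and a list of Iroquois regulators and targets were not examined, since they need release 5 positions or sequences.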

Additional observations from a re-analysis of the deposited data

How the results depend on the processing

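Of 27 recomputed values for 7 results, 17 stayed within 1.5 times (counts and covered bases) or within 1 SD of the 2 libraries, and 10 did not. Leaving out 1 of 2 libraries cannot move their mean by 1 SD. The values of cover and mean score with 1 replicate left out are therefore among the 17 by construction. So is the count with only regions wholly inside the window, as no series region crosses its edges. The count of regions seen without replicate 1 also had to stay at 11, as no region was seen in replicate 2 alone. No stability is read from any of these values. Requiring 50% overlap left 1 series region seen in both replicates (11 before) and 5 replicate 1 clusters that overlap replicate 2 (11 before), as replicate 2 covered under 50% of the others. Keeping clusters above the median score of their own list gave 7 regions seen in both, 7 of 13 replicate 1 clusters and 7 of 7 replicate 2 clusters overlapping, 38.5 kb covered in both and a mean score of 1.11, fewer clusters by construction. Joining clusters less than 1 kb apart gave 7 of 10 replicate 1 clusters overlapping. Weighting clusters by length also gave a mean score of 1.11. With 1 replicate left out, a region counted as seen where the remaining library overlapped it, which is a looser measure than seen in both. Regions seen then ranged from 11 (without replicate 1) to 17 (without replicate 2), and cover from 37.3 to 78.3%. The mean score ranged from 0.80 to 0.83 and the domain from 126 to 140.4 kb. All 4 alternatives for the domain (both gaps and each replicate left out) were added after seeing the data. A gap of 20 kb left its 126 kb as they were. Either this gap or leaving out replicate 2 made it the 3rd by covered bases. A gap of 5 kb reduced the domain to 97.7 kb and put 28.0 kb in a domain of its own. No paired analysis was possible because the replicate numbers pair each ChIP library with its input, and no input values were analysed.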
